A study of Mus musculus with 80 samples.

Results

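Heme is built from glycine and succinyl-CoA in a chain of enzymes that starts and ends in the mitochondrion, and it is broken down by heme oxygenase. Of 78275 rows of the deposited mouse gene count table, the 9 rows described here were chosen by symbol: Alas1, Alad, Uros, Urod, Cpox, Ppox and Fech, which make heme, Hmox1, which degrades it, and Por, which passes electrons to heme enzymes. Each symbol had 1 row, and 9 of 9 passed the filter on low counts that left 21187 genes for testing. The livers came from group-housed C57BL/6 mice of 8 to 12 weeks that carried no transgene or deletion by the labels. The control mice had food at all times, and the fasted mice lost it at circadian time (CT) 10, on the day of constant darkness that followed 10 days of light and dark. Livers were taken every 4 h from CT8 to CT44, from 2 males and 2 females per treatment and time, each mouse giving 1 library, so that each treatment had 40 libraries. At CT8 the mice of the fasted group had not yet lost food, and the comparison at that time is the background of all later ones. Titles and detailed labels disagreed on treatment and sex for many libraries, and the titles were used; the sex-linked genes fitted the title in 80 of 80 libraries.

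ALAS1, the first enzyme of the chain in hepatocytes, sets the rate of heme synthesis in liver and is held down by heme itself. It is known to be induced in fasted liver through PGC-1α, and its transcript follows the clock. ALAD, UROS and UROD act in the cytosol, and CPOX, PPOX and FECH finish the molecule in the mitochondrion, where FECH inserts the iron. Most heme made in hepatocytes outside the respiratory chain goes to microsomal cytochromes P450, and POR is the reductase on which both these and heme oxygenase depend. Heme is also the ligand of REV-ERBα, a repressor of the clock.

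Total counts per library lay between 25534901 and 59927771. Levels are given as CPM, a gene's counts scaled by the TMM-corrected total of the library, and a log2 change is fasted over control from edgeR's quasi-likelihood test, called where the p adjusted over all genes was under 0.05. Markers of hepatocytes were high in every library: 6 genes summed to between 58769 and 132399 CPM from CT12 to CT44. The 3 libraries farthest from the others of their group were fasted CT40 female 2, control CT8 female 2 and fasted CT44 female 1, and calls that rest on them are given with and without them. Control CT8 female 2 had the lowest total, and 31.3% of its counts were in the ribosomal RNA row Rn18s-rs5. This row held over 1% of the counts in 7 libraries. In bulk liver, fewer cells of a type and less RNA per cell cannot be told apart.

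Per kilobase of exon, Por and Alas1 stood highest of the 9 genes and Uros and Ppox lowest. The control median from CT12 to CT44 was 97.8 CPM per kilobase for Por, 72.8 for Alas1, 63.3 for Alad, 23.4 for Cpox, 23.0 for Urod, 12.7 for Hmox1, 12.2 for Fech, 5.05 for Uros and 4.68 for Ppox. In fasted livers the same medians were 323 CPM per kilobase for Por, 114 for Alas1, 36.5 for Cpox, 36.4 for Alad, 20.5 for Urod, 15.5 for Hmox1, 12.2 for Fech, 4.63 for Uros and 3.37 for Ppox. In control livers the ranges over libraries overlapped between all neighbours in that order but Alad and Cpox, and Fech and Uros, and in fasted livers between all neighbours but Fech and Uros. The exon lengths are those of GENCODE M21 on GRCm38, an older annotation than that of the counts. Each is the union of all annotated exons of a gene, which can be longer than the transcript that the liver makes, so the order depends on it. Fech had the longest union, 13838 bases. Its control median in CPM, 168, lay above those of Cpox (156) and Alad (118).

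Over the fast, 4 of the 9 transcripts rose, 4 fell and Fech was not called. The mean effect, the average of the log2 differences at CT12 to CT44, was called higher in 29.5% and lower in 32.9% of all genes tested, so that a call in one direction or the other was common among all genes. The chain did not move as a unit. Its first enzyme, Alas1, and the mitochondrial Cpox rose, as did Hmox1 and Por, and Alad, Uros, Urod and Ppox fell. The median of the 9 mean effects was 0.0050 on the log2 scale, against -0.020 for all genes tested.

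**Figure D1:**
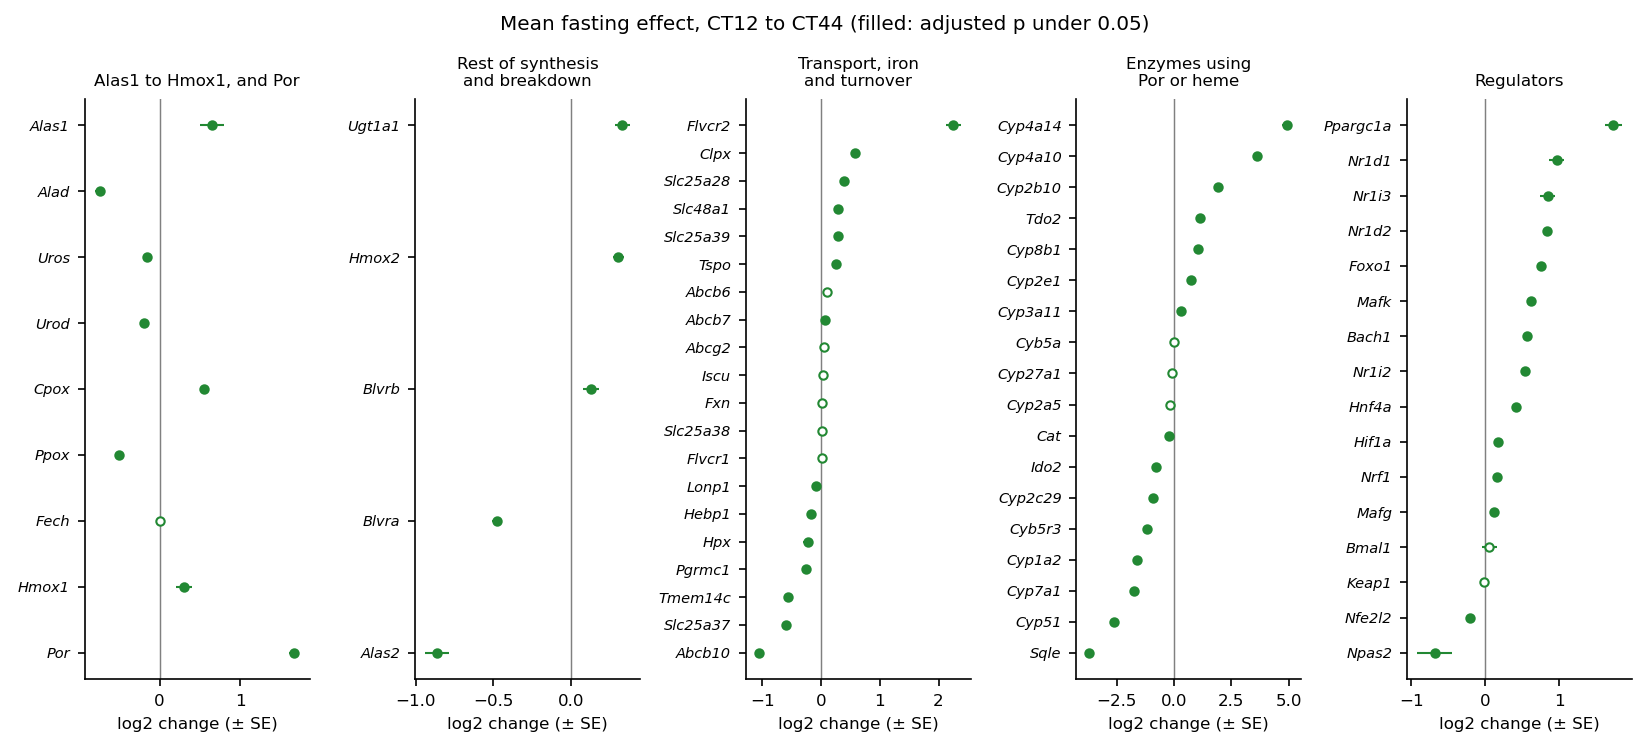
Mean log2 change (fasted over control, CT12 to CT44) with its standard error for the 9 genes and for 4 lists of related genes, filled where the adjusted p was under 0.05. Among the 9 genes Por lies farthest right at 1.67 and Alad farthest left at -0.74, and Fech lies at 0.0050.

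None of the 9 genes was called at CT8 or CT12, when 1.33% and 1.6% of all genes tested were. At CT16 the genes called were Alad, Cpox, Ppox and Por, against 23.4% of all genes. At CT20 Alas1 joined these 4, against 36.6% of all genes. The called genes at CT24 were the 4 of CT16, against 24.1%, and at CT28 Alas1 was called again, against 21%. At CT32 and CT36 the called genes were Cpox, Ppox and Por, against 17.7% and 26.8% of all genes. At CT40 Alad, Uros, Urod, Cpox, Ppox, Fech and Por were called, against 39.9%, and at CT44 all but Uros and Fech, against 39.4%.

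**Figure D2:**
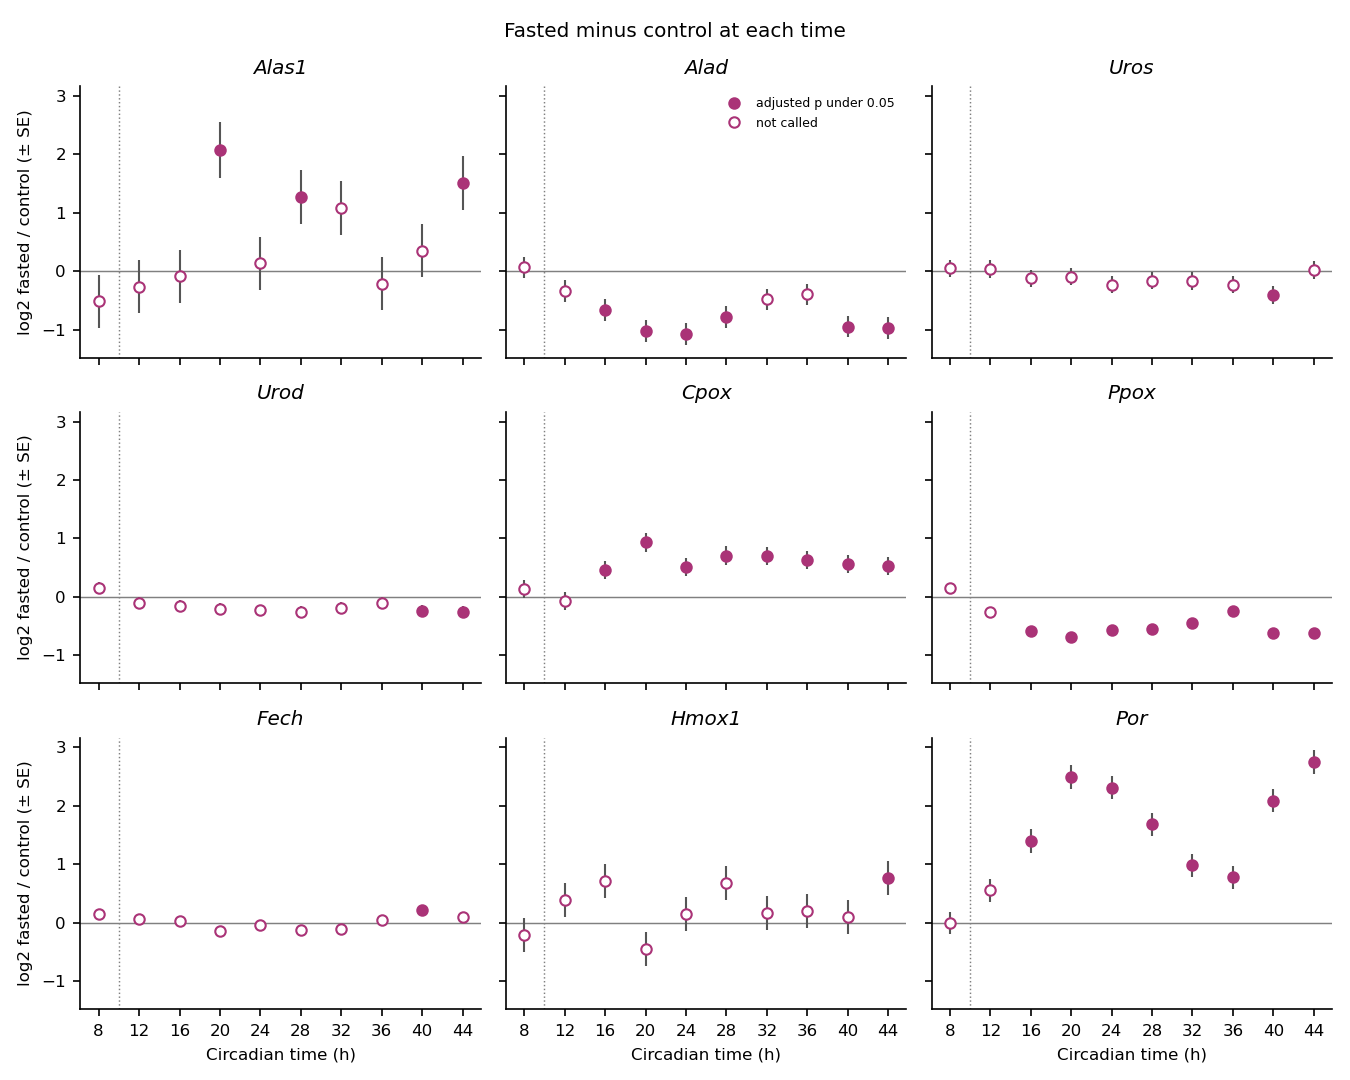
Log2 change (fasted over control) with its standard error at each circadian time for the 9 genes, filled where the adjusted p was under 0.05. No point is filled at CT8 or CT12, Por reaches 2.75 at CT44, and Cpox and Ppox are filled from CT16 to CT44 on opposite sides of 0.

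Alas1 had the widest error of the 9 genes, and its called rises came at times when the fed level was low. Across CT12 to CT44 the 36 control libraries ran from 31.5 to 1549 CPM with a median of 449, and the 36 fasted libraries from 134 to 1630 CPM with a median of 701. The mean effect was 0.65 ± 0.15 (log2, SE; 1.57-fold, adjusted p = 0.000241). The highest libraries of both treatments were close to each other, and the lowest lay apart.

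Among single times Alas1 was called at CT20, CT28 and CT44. At CT20 the control males had 197 and 55.2 CPM of Alas1 and the control females 408 and 133 CPM, and the fasted males had 727 and 770.2 CPM and the fasted females 676 and 935 CPM. All 4 fasted livers lay above all 4 controls, and the change was 2.07 ± 0.47 (log2, SE; 4.21-fold, adjusted p = 0.000445 by edgeR). Groups without overlap, in either direction, were found in 5.96% of all genes at CT12, 18.9% at CT16, 29.8% at CT20, 19.5% at CT24, 18.5% at CT28 and CT32, 21.5% at CT36, 26.7% at CT40 and 30.1% at CT44. One day later, at CT44, the control livers had 245, 87.8, 413 and 177 CPM, males first, and the fasted livers 572, 759.8, 637 and 549 CPM. Again the groups did not overlap, and the change was 2.84-fold (adjusted p = 0.00814).

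At CT28, the controls had 278, 31.5, 119 and 101 CPM of Alas1 and the fasted livers 306, 218, 379.9 and 373 CPM. Here 1 control male lay within the fasted range, and the change of 1.27 (log2) had an adjusted p of 0.0431. The CT20 call held when all libraries of any 1 replicate number of 1 sex were left out, but CT28 was lost in 3 of these 4 fits and CT44 in 2 of them, without male replicate 2 (adjusted p = 0.0758) and without female replicate 2 (0.108). At CT24, between the called times, the change was 0.14 (log2, adjusted p = 0.879), with 332 ± 141 CPM in controls and 362 ± 175 CPM in fasted livers (mean ± SD, n = 4). At CT32 the means were 529 ± 193 and 1113 ± 323 CPM, 2.12-fold apart, a change that was not called (adjusted p = 0.097 by edgeR). It was called in females alone (0.0473). With no filter the log2 change was the same, 1.08, yet its adjusted p was 1.98e-13, and why it fell so far was not tested. That fit also called Alas1 at CT8, before food was lost (-0.52, adjusted p = 0.00928 by edgeR). Over all genes it called 181 higher and 672 lower at CT8, against 25 and 257 in the main fit. Near the daily peak Alas1 showed no such gap between the treatments. At CT12 the controls had 1526, 1430.5, 564 and 1459.7 CPM, with 1 female far below the rest, and the fasted livers 1630, 468, 1200 and 763 CPM. At CT36 the controls had 1111, 1191, 1029 and 1549 CPM and the fasted livers 1546, 1135, 835 and 815 CPM.

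**Figure D3:**
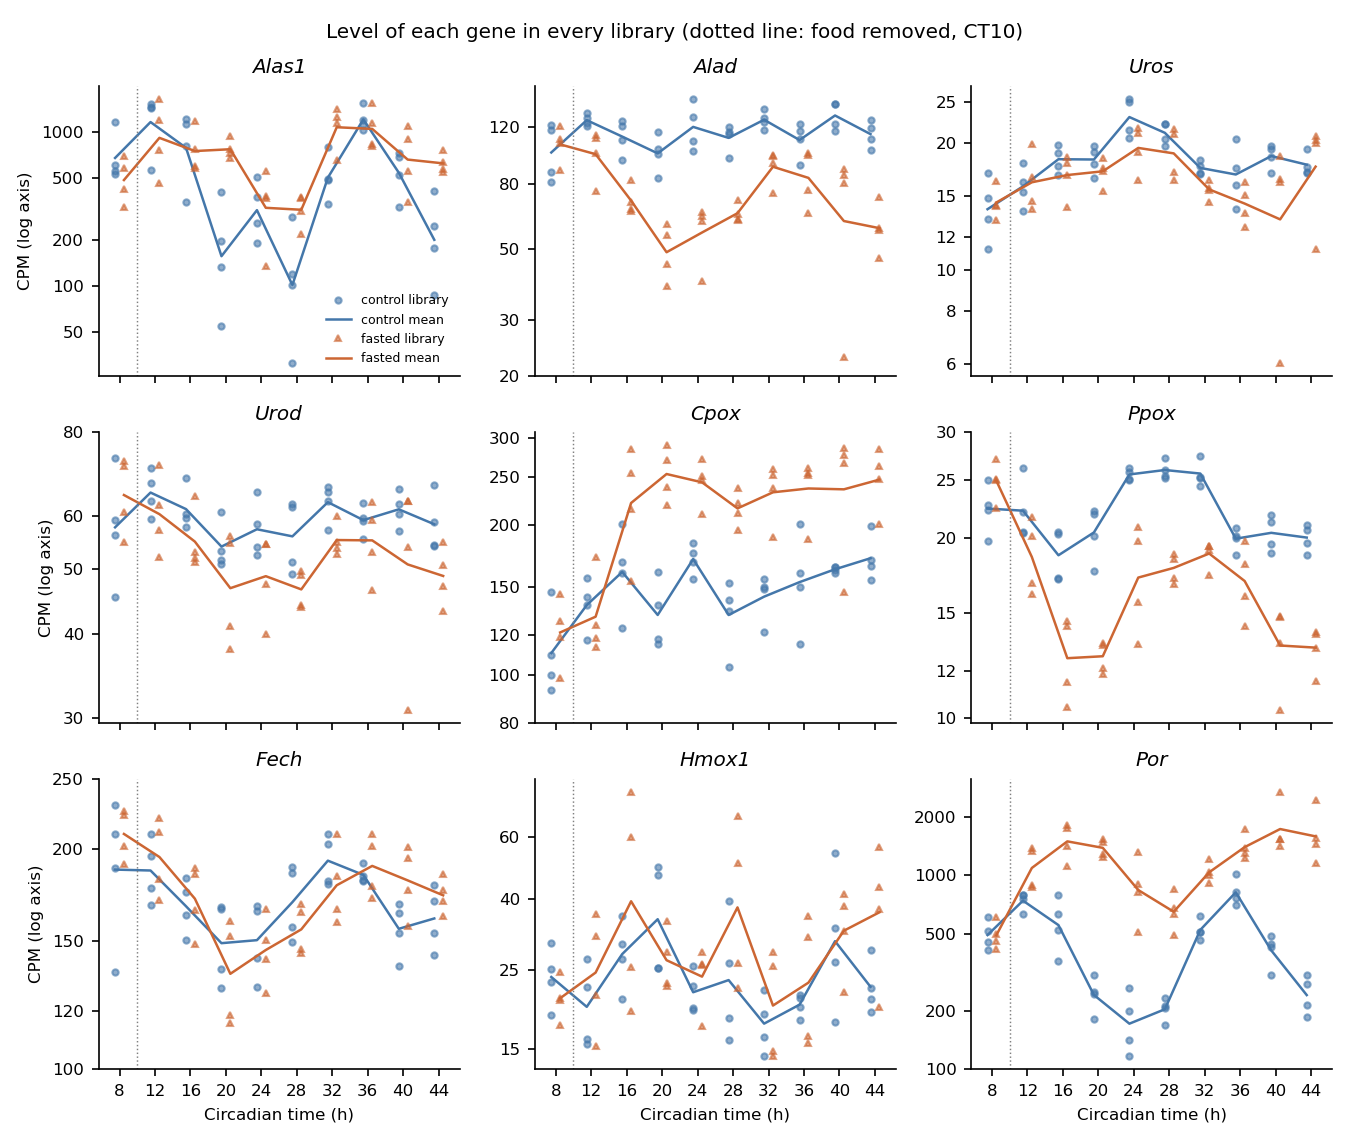
Level of each of the 9 genes in every library (CPM, log axis) against circadian time in h, circles for control and triangles for fasted libraries, lines through the mean of the log2 values; the dotted line marks the loss of food. Alas1 and Por swing over the day in control livers, and fasted Por stays above control Por at each time from CT12 to CT44.

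The enzymes that work in the cytosol all fell on average, Alad by far the most. ALAD joins a pair of aminolevulinate molecules into porphobilinogen, the pyrrole unit of the ring. Its control libraries ran from 83.1 to 147 CPM with a median of 118 between CT12 and CT44, and its fasted libraries from 22.9 to 113 CPM with a median of 68.1. The mean effect was -0.74 ± 0.061 (log2, SE; 1.67-fold lower, adjusted p = 1.38e-14 by edgeR). All 4 fasted livers lay below all 4 controls at 8 of 9 times, the exception being CT36.

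At CT20 the Alad level was 83.1, 98.7, 116 and 102 CPM in the controls, males first, and 59.6, 55.1, 38.4 and 44.8 CPM in the fasted livers. At CT24 it was 147, 129, 109 and 101 CPM in the controls and 63.2, 65.4, 39.6 and 61.0 CPM in the fasted livers. The fold differences at these times were 2.04 and 2.12, with adjusted p of 1.72e-05 and 1.52e-05. In between, the gap narrowed: at CT32 the controls had 128, 124, 137 and 118 CPM and the fasted livers 97.5, 74.7, 98.1 and 92.6 CPM, and neither CT32 nor CT36 was called. Several alternatives called them, among them the fits without female replicate 1 (adjusted p = 0.0155 at CT32 and 0.0177 at CT36) and without fasted CT40 female 2 (0.00526 and 0.0172). The calls at CT16 and CT28 were lost without male replicate 1 and without male replicate 2 (adjusted p = 0.0776 to 0.148). At CT40 the fasted livers had 80.4, 88.5, 85.02 and 22.9 CPM, the last being the female library that stands apart, against 123, 117, 142 and 142 CPM in the controls.

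Uros and Urod, which close the ring and remove its acetate carboxyls, changed little. Uros had a median of 18.04 CPM in control and 16.5 CPM in fasted livers (mean effect -0.15 ± 0.049, log2 and SE, adjusted p = 0.00653), and Urod 59.6 and 53.1 CPM (-0.19 ± 0.033, adjusted p = 1.91e-06). The call of Uros was lost without male replicate 1 (adjusted p = 0.0791) and without male replicate 2 (0.0864). Both were called at CT40, Uros at -0.41 and Urod at -0.25. There the fasted livers had 16.5, 18.6, 16.1 and 6.04 CPM of Uros, against 19.6, 16.9, 19.3 and 18.5 CPM in the controls. Without the fasted female at 6.04 CPM, the CT40 change was -0.13 for Uros (adjusted p = 0.483) and -0.057 for Urod (0.71), so both calls rest on that library. At CT44 Urod fell by 0.26 on the log2 scale (adjusted p = 0.0374), and this call was lost without fasted CT44 female 1 (-0.22). It was also lost without male replicate 1 (-0.26), without male replicate 2 (-0.28) and without female replicate 1 (-0.23). Neither males alone (-0.25) nor females alone (-0.24) gave the call.

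Of the mitochondrial enzymes, Cpox rose, Ppox fell and Fech held its level. CPOX turns coproporphyrinogen into protoporphyrinogen, and PPOX oxidises that to protoporphyrin. Cpox had 103 to 201.1 CPM in control libraries (median 156) and 113 to 291 CPM in fasted ones (median 243), a mean effect of 0.55 ± 0.052 (log2, SE; 1.47-fold, adjusted p = 7.26e-13 by edgeR). It was called at each of the 8 times from CT16 to CT44, but the CT20 call alone held in all 4 fits that leave out a replicate number, and each other time was lost in 1 to 3 of them. The gap was widest at CT20, where the controls had 115, 161, 118 and 138 CPM and the fasted livers 271, 291, 220.4 and 239 CPM, 1.91-fold higher. The 4 fasted livers lay above the 4 controls at 5 of 9 times. At CT40, 3 fasted livers had 287, 278 and 268 CPM and the female that stands apart 147 CPM, under all 4 controls at 160.4 to 165 CPM.

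Ppox, the lowest of the 9 genes per kilobase, fell with a small error. Its control libraries ran from 17.1 to 27.4 CPM (median 21.1) and its fasted libraries from 10.3 to 21.6 CPM (median 15.2), a mean effect of -0.51 ± 0.026 (log2, SE; 1.42-fold lower, adjusted p = 1.66e-21 by edgeR). It too was called at each of the 8 times from CT16 to CT44. At CT20 the controls had 17.6, 22.0, 20.2 and 22.1 CPM and the fasted livers 13.4, 13.3, 12.1 and 11.8 CPM, a fall of 0.69 on the log2 scale. The change was smallest at CT36, -0.23, where the controls had 20.8, 20.2, 19.98 and 18.7 CPM and the fasted livers 19.8, 18.1, 14.2 and 16.01 CPM. The groups did not overlap at 7 of 9 times, the exceptions being CT12 and CT36. The call at CT36 was lost in 3 of the 4 fits that leave out a replicate number (adjusted p = 0.123 to 0.224).

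Fech, whose product places iron in protoporphyrin, had medians of 168 CPM in control and 169 CPM in fasted livers. Its mean effect was 0.0050 ± 0.022 (log2, SE, adjusted p = 0.884). Among single times CT40 was called, at 0.22 (adjusted p = 0.00544), with 164, 169, 139 and 154 CPM in the controls and 201.4, 194, 176 and 157 CPM in the fasted livers. These ranges overlap in 1 fasted female, and the call was lost in 3 of the 4 fits that leave out a replicate number (adjusted p = 0.0661 to 0.193).

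Hmox1, the inducible heme oxygenase, cleaves heme to biliverdin, iron and carbon monoxide. It had 14.3 to 53.8 CPM in control libraries (median 22.2) and 14.3 to 80.3 CPM in fasted libraries (median 27.2), with a mean effect of 0.30 ± 0.097 (log2, SE; 1.23-fold, adjusted p = 0.0063 by edgeR). The rise was lost in the fits without male replicate 2 (adjusted p = 0.0551), without female replicate 2 (0.140) and in males alone (0.246). At CT16 the fasted livers ran from 19.2 to 80.3 CPM and the controls from 20.8 to 35.7 CPM, so that the highest library of all shared its group with one below every control of that time. At CT44 the controls had 19.1, 22.3, 20.8 and 28.5 CPM and the fasted livers 19.7, 43.2, 56.1 and 37.3 CPM. CT44 was the time called for Hmox1 (0.76, adjusted p = 0.033), and without fasted CT44 female 1 it was not (0.60, adjusted p = 0.159). At no time did the groups separate fully.

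Kupffer cells, which take up old red cells, express Hmox1 strongly, and most of their markers moved the other way. Of 9 Kupffer cell markers, 7 fell and 1 rose over the fast (median -0.32, all genes -0.020). The marker that rose was Cd163 (0.62, log2), and Marco was not called (0.26). The sum of the 9 ran from 266 to 885 CPM in control libraries (median 417) and from 221 to 628 CPM in fasted libraries (median 338). Their part in the Hmox1 result was not tested.

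Por showed the largest change of the 9 genes. Its control libraries ran from 117 to 1019 CPM (median 393) and its fasted libraries from 489 to 2689 CPM (median 1298), a mean effect of 1.67 ± 0.067 (log2, SE; 3.19-fold, adjusted p = 1.27e-25 by edgeR). All 4 fasted livers lay above all 4 controls at 9 of 9 times.  Before food was lost, at CT8, Por had 452, 517, 607 and 410.1 CPM in controls and 460.2, 499, 415 and 608 CPM in the other group, and the ranges were nearly the same.

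After CT10 the Por gap opened within hours. At CT12 the controls had 788, 756, 629.9 and 795 CPM and the mice without food 866, 887, 1328 and 1383 CPM, a change of 0.56 that was not called (adjusted p = 0.147). At CT20 the controls had fallen to 306, 181, 244 and 251 CPM, whereas the fasted livers had 1246, 1291, 1536 and 1486 CPM, 5.64-fold higher (adjusted p = 2.84e-13). At CT36, near the peak of the control curve, the controls had 699, 759.6, 819.9 and 1019 CPM and the fasted livers 1377, 1305, 1722 and 1227 CPM, 1.72-fold higher. At CT44 the controls had 186, 213, 307 and 276 CPM and the fasted livers 1157, 1558, 2435 and 1441 CPM, 6.72-fold higher (adjusted p = 3.38e-14). The smallest changes, at CT12 and CT36, stood at the times of the highest control means. The call at CT36 was lost without male replicate 1 (adjusted p = 0.0566) and without female replicate 1 (0.0661).

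A further contrast asked whether the fast had a larger effect later on, by comparing CT36, CT40 and CT44 with CT12, CT16 and CT20, the same phases a day apart. None of the 9 genes was called, where 9.91% of all genes were called higher and 11.3% lower late. The closest were Fech with 0.14 ± 0.053 (log2, SE, adjusted p = 0.059 by edgeR) and Por with 0.39 ± 0.16 (adjusted p = 0.0737). Alas1 had -0.025 ± 0.37.

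In fed livers 8 of the 9 transcripts followed a 24 h rhythm, against 41.8% of all genes tested. Alas1 had the largest swing, with a fitted peak-to-trough range of 2.55 (log2; 5.86-fold, adjusted p = 5.81e-06 by edgeR) and a peak at CT12.3. Por followed with 2.23 (adjusted p = 1.91e-15) and a peak at CT12.1, so that the first enzyme of heme synthesis and the reductase of the heme enzymes peaked at about the same time, at the start of the subjective night. Over the 10 control means Pearson's r between Alas1 and Por was 0.902. These points share their libraries, and the value is a description.

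The rhythms of the other genes were shallow and differed in phase. Hmox1 had a range of 0.55 (log2) with a peak at CT19.4, Ppox 0.43 at CT4.08, Uros 0.40 at CT23.7, Fech 0.35 at CT9.43, Cpox 0.32 at CT18.9 and Urod 0.18 at CT12.2. Fech (adjusted p = 1.98e-07) and Ppox (6.4e-07) had the lowest adjusted p among these. Cpox (0.0423) was lost in each fit that left out a replicate number and without control CT8 female 2 (0.0894). Hmox1 (0.0245) and Urod (0.0223) were lost in 2 and 3 of the replicate fits. Alad was not called (0.086, adjusted p = 0.744).

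**Figure D4:**
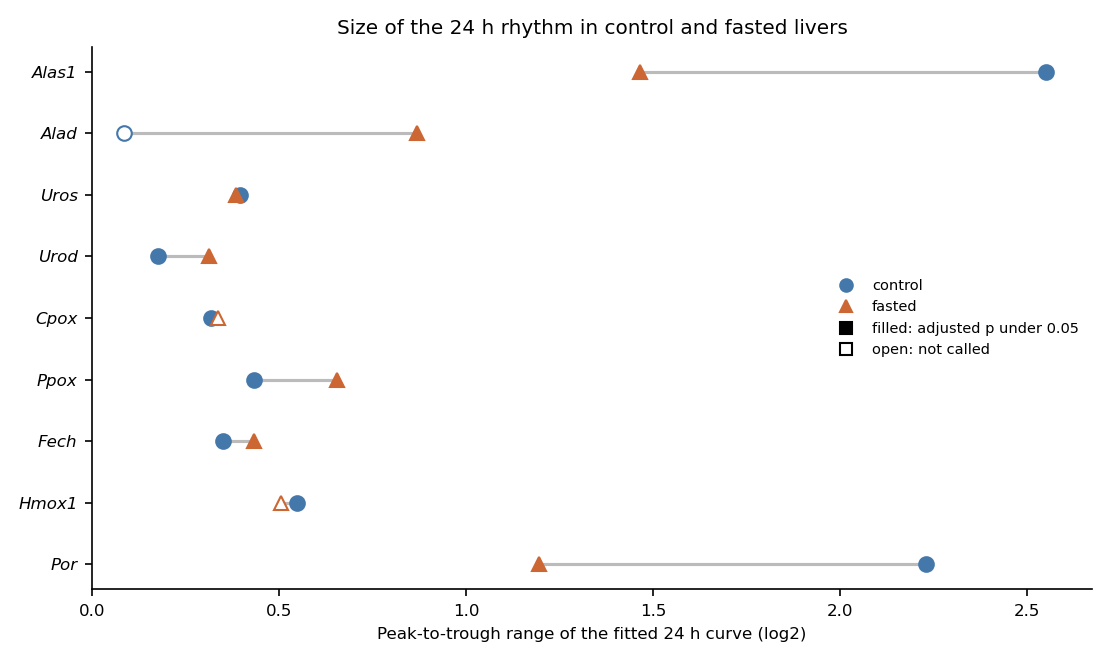
Peak-to-trough range of the fitted 24 h curve (log2) for each gene in control (circles) and fasted (triangles) livers, filled where the adjusted p was under 0.05. The range of Alas1 is 2.55 in control and 1.47 in fasted livers, that of Por 2.23 and 1.19, and that of Alad 0.086 and 0.87. Control curves were fitted over CT8 to CT44 without a linear change, and fasted ones over CT12 to CT44 with one.

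In fasted livers a 24 h curve was called for 7 of the 9 genes, against 47.1% of all genes. The curves of 4 genes differed from the fed ones when the difference itself was tested, against 23.2% of all genes. Circadian time and hours without food rose together, so a rhythm and a course of the fast cannot be told apart here. Control curves were fitted over CT8 to CT44 without a linear change, and fasted ones over CT12 to CT44 with one. The difference was tested in a further fit of CT12 to CT44 with a linear change in both treatments. Alad was called in fasted but not in control livers. Its fasted range was 0.87 (log2) with a peak at CT10.1 (difference, adjusted p = 0.00354 by edgeR). Por had a fasted range of 1.19 and a peak at CT16.1, against 2.23 and CT12.1 in controls (difference, adjusted p = 1.6e-11 by edgeR). Ppox had 0.65 with a peak at CT6.60 (difference 0.00785), and Fech 0.43 at CT11.6 (0.0219). The differences of Alad, Ppox and Fech were lost in 2, 2 and 3 of the 4 fits that left out a replicate number, whereas that of Por was not lost in any.

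Alas1 kept a peak at CT12.8 in fasted livers with a range of 1.47 (log2, adjusted p = 0.000703), and its fed and fasted curves were not called different (adjusted p = 0.245). In females alone the fasted rhythm was not called (adjusted p = 0.103) and the difference was (0.0375). Urod had a fasted range of 0.31 with a peak at CT11.6, lost without female replicate 1, and Uros one of 0.38, 0.798 h after CT0, the latter lost in every fit without a replicate number. Cpox (adjusted p = 0.113) and Hmox1 (0.31) were not called. Over 9 fasted means the r of Alas1 and Por was 0.608.

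The promoter of Alas1 is shown because its transcript had the largest fed swing, and that of Por because its transcript had the largest response. Those of Urod and Alad are shown as examples with the E-box, the site of CLOCK and BMAL1, which an entry of Uros, not shown, also held. All are from RefSeq on GRCm38.p6, 250 bases before the start of transcription to 50 after it, 5′ to 3′ on the strand of the gene, with matches to any motif searched in capitals. Alas1 lies at chr9:106247905-106248204 on the minus strand, Por at chr5:135688895-135689194 on the plus strand, and Urod at chr4:116994364-116994663 and the second entry of Alad at chr4:62519860-62520159, both on the minus strand.
Alas1: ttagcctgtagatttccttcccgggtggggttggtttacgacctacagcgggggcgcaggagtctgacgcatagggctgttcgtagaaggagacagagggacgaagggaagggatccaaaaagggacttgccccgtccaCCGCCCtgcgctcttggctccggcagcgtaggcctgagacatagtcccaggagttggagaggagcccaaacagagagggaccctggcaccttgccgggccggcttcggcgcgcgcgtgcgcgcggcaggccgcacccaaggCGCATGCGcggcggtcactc
Por: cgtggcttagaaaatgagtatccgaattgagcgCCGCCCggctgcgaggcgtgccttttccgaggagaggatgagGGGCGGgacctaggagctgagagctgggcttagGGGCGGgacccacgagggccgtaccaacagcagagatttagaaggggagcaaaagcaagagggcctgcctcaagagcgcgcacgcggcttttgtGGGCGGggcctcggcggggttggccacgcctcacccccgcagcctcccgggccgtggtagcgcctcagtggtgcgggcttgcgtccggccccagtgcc
Urod: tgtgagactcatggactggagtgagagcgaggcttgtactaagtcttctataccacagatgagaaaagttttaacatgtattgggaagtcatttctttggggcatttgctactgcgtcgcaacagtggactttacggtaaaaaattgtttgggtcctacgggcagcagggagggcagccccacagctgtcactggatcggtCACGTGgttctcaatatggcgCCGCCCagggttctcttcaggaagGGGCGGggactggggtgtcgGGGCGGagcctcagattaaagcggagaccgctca
Alad: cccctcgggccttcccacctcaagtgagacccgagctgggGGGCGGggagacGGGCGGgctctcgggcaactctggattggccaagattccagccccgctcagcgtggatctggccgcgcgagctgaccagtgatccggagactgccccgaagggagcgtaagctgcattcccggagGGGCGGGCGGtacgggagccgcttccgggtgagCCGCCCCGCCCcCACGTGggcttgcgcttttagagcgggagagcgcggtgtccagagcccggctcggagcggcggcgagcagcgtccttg

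The motifs searched on both strands were the E-box CACGTG, the NRF1 core CGCATGCG, the D-box TTANGTAA, the RORE core AGGTCA, the antioxidant response element TGACNNNGC, the FOXO site TGTTTAC, the cAMP response element TGACGTCA and the GC box GGGCGG. Entries were found for 7 of the 9 genes, and those for Fech and Hmox1 were not. The E-box, in 7.15% of 32851 promoters of 300 bases, lay 49 bases before the start of Urod and 28 bases before that of Alad, and also in the first entries of Alad and Uros. The NRF1 core, in 1.87% of promoters, lay 31 bases into Alas1, at the start of its transcript. GC boxes, in 35.7% of promoters, numbered 4 in Por, 6 in the Alad sequence shown, 3 in Urod and 1 in Alas1. Of the 2 genes with the largest fed rhythm, neither Alas1 nor Por held an E-box, a D-box (2.32%) or the RORE core (16.3%) in these windows. The antioxidant response element (12.4%), FOXO site (3.65%) and cAMP response element (1.79%) had no match in any of the 7 genes. These are letters in a window, not sites shown to be bound.

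Between the sexes the response of 1 of the 9 genes was called different, against 12.4% of all genes. Ppox fell by 0.37 on the log2 scale in males and by 0.64 in females, a difference (female minus male) of -0.27 ± 0.052 (SE, adjusted p = 0.00051 by edgeR). Control levels were alike, 22.3 ± 3.36 CPM in 18 females and 21.9 ± 2.77 CPM in 18 males (mean ± SD, CT12 to CT44), and fasted levels were 14.4 ± 2.78 and 17.0 ± 2.99 CPM. The call was lost without male replicate 1 (-0.23, adjusted p = 0.135). Alad leaned the same way, -0.92 in females and -0.57 in males, and the difference of -0.35 ± 0.12 had an adjusted p of 0.0503 and was called under several alternatives. Its fasted means were 65.2 ± 22.7 CPM in females and 78.3 ± 17.0 CPM in males.

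In control livers 3 of the 9 genes differed by sex, against 39.2% of all genes. Fech was lower in females by 0.24 on the log2 scale (adjusted p = 2.75e-09), with 156 ± 18.1 CPM in females and 182 ± 15.6 CPM in males. Urod was lower in females (-0.17, adjusted p = 0.00189), with 56.5 ± 4.42 against 62.8 ± 4.61 CPM. Por was higher in females (0.26, adjusted p = 0.0134), with 475 ± 253 against 405 ± 237 CPM (mean ± SD over CT12 to CT44, n = 18, the spread including the rhythm). The calls of Urod, without male replicate 1, and of Por, without male replicate 2 or female replicate 1, were lost.

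Counts per exon bin were used to ask whether parts of a transcript changed unequally. They are named by gene and bin number without positions, so that it cannot be said which exons they are. Alad (adjusted p = 3.37e-12), Fech (1.66e-11) and Por (2.77e-09) were called, against 14.4% of 13728 genes tested with edgeR's diffSpliceDGE. Bin 16 of Alad made up 0.869% of the gene's counts in control and 1.46% in fasted livers, a relative change of 0.70 (log2), and bin 15 made up 2.28% and 2.74%. Bin 6 of Alad moved the other way, from 0.747% to 0.574% (-0.32, adjusted p = 0.0464). In Alas1, which was not called as a gene, bin 21 was called (0.674% to 0.766%, adjusted p = 0.0325). Bins 27, 28 and 30 of Fech rose in share, bin 30 from 1.33% to 1.85%, although the gene's total did not change. The Por call came from bin 3, which held 0.0722% and 0.0485% of its counts, and it was lost when each bin needed at least 10 counts in every library (adjusted p = 0.189). Each of these bins is a small part of its gene.

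Of 5 further genes of heme synthesis and breakdown, listed with earlier results known, 3 rose and 2 fell, with a median of 0.13. Of all genes tested, 29.5% rose and 32.9% fell, with a median of -0.020, and the counts of the lists below are to be read against these. Ugt1a1, which conjugates bilirubin, rose by 0.33 (log2; 238 to 302 CPM, means), and the constitutive heme oxygenase Hmox2 by 0.31 (37.6 to 46.6 CPM). Blvrb, a biliverdin reductase, rose by 0.13 (adjusted p = 0.0342), a call lost in 5 alternatives, among them females alone, where the sign was opposite (-0.016). Blvra, the other biliverdin reductase, fell by 0.48 on the log2 scale and Alas2, the erythroid form of the first enzyme, by 0.86 (80.4 to 49.1 CPM).

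Of 20 genes of heme and porphyrin transport, iron delivery and ALAS1 turnover, 7 rose, 7 fell and 6 were not called (median 0.027, all genes -0.020). Flvcr2 rose by 2.25 (log2, 2.90 to 13.3 CPM), Clpx, a subunit of the mitochondrial protease that degrades ALAS1, by 0.58 (159 to 240 CPM), and the iron carrier Slc25a28 by 0.40. Abcb10, a transporter of the inner mitochondrial membrane, fell by 1.06 (42.1 to 21.0 CPM), the iron carrier Slc25a37 by 0.59 and Tmem14c, which serves porphyrin import, by 0.55. Both iron carriers were called, in opposite directions.

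The 18 enzymes that draw on POR or on heme split into 7 that rose, 8 that fell and 3 not called (median -0.14, all genes -0.020). The fatty acid hydroxylases Cyp4a14 (4.91, log2; 273 to 7218 CPM) and Cyp4a10 (3.63; 322 to 4121 CPM) and the drug-metabolising Cyp2b10 (1.92; 17.5 to 64.3 CPM) rose most. The enzymes of sterol synthesis Sqle (-3.69; 121 to 16.6 CPM) and Cyp51 (-2.62; 195 to 45.7 CPM) and Cyp7a1, the rate-limiting enzyme of bile acid synthesis (-1.74; 314 to 142 CPM), fell most. All 6 had adjusted p of at most 3.58e-10.

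Of 16 regulators of the pathway 12 rose, 2 fell and 2 were not called (median 0.47), where 29.5% of all genes rose and 32.9% fell (median -0.020). Ppargc1a, which encodes PGC-1α, rose by 1.73 (log2; 11.8 to 41.8 CPM, adjusted p = 1.29e-17) and the xenobiotic receptor Nr1i3 by 0.84 (261 to 458 CPM). Nr1d1, which encodes REV-ERBα, rose by 0.96 as the mean of the log2 differences, although its mean CPM was 43.8 in control and 43.0 in fasted livers. Npas2, a clock activator that binds heme, fell by 0.69 (adjusted p = 0.0103), and Nfe2l2, an activator of Hmox1, by 0.21. The Npas2 call was lost without male replicate 1, without female replicate 1 and in males alone, and that of Nfe2l2 in males alone.

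The genes with the profile closest to Alas1 over the 20 treatment and time means, by Pearson's r among 11576 genes, were A930033H14Rik (0.894), Lrpprc (0.868), Efhd2 (0.860), Per1 (0.859) and Trak2 (0.859). For Por they were Mfsd2a (0.972), Bnip3 (0.965), Pptc7 (0.965), Apbb3 (0.963) and Man2a1 (0.961), and for Hmox1 Zc3h4 (0.812), App (0.806), Pigv (0.778), Sh3pxd2b (0.775) and Ybx3 (0.758). Among the 9 genes themselves Alad and Urod were most alike (0.899), then Alad and Ppox (0.834). Alas1 and Por had 0.736. The most opposed were Por and Ppox (-0.793), then Cpox and Ppox (-0.781) and Alad and Cpox (-0.775). The 20 means share their libraries across genes, so these values are a description.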

How the data were processed

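In the main table that the authors deposited, each column holds the unscaled read counts of 1 mouse by gene. Poly-A stranded libraries were read in pairs of 76 bases. The submitters' processing notes name Trimmomatic, HISAT2, DESeq2 and GRCm39, and the counting program is not given in the sources used here. The authors also deposited a normalised signal, in which a single factor per library divides the counts, and which was not used, and counts per exon bin, where 5 rows that name no bin (8.28% to 25.9% of a column) were left out. Of its 80 columns, 3 of fasted CT40 were matched better by another library of their group than by their own, so CT40 was fitted there without sex.

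Libraries were grouped by title into treatment, time and sex. No 2 replicates were duplicates by the chi-square of their counts. With R 4.3.3 and edgeR 4.0.16, all 80 libraries were fitted with a mean per treatment, time and sex after filterByExpr and TMM scaling (prior count 2 for log2 CPM), and quasi-likelihood p-values were adjusted by Benjamini-Hochberg over all genes. Rhythms were fitted as a cosine and a sine of 24 h with sex, in fasted livers (CT12 to CT44) with a linear change, and their difference over 72 libraries. Scripts were tested on simulated data. Alternatives used RLE and upper quartile scaling, other filters, limma 3.58.1 (voom), DESeq2 1.42.0, single sexes, left-out times, replicate numbers and libraries, and a replicate block.

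Some genes of the lists are not reported here. The 9 genes and the lists were chosen with earlier results of these data known. All 9 are named in each comparison; of each list, up to 3 called genes with the largest rise and the largest fall are named; for Alas1, Hmox1 and Por, the 5 genes of closest profile with a mean log2 CPM of at least 1. The article is a review without methods, so the tests are not taken from it. The SE of a log2 change is that of the fitted contrast and rests on the variation between mice of a treatment, time and sex. An SD over several times also holds the change over time.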

Additional observations from a re-analysis of the deposited data

Results flagged for a closer look

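In each group of 4 libraries of 1 treatment and time, the highest or lowest was compared with the rest by Dixon's test. A library lay far from the others in 9 of 180 groups, 5% of them, a share equal to that level. The groups of the 9 genes hold the same libraries and are not independent, so this share was not tested against chance. Alas1 stood at 1163 CPM in control CT8 female 1, above 529 to 614 CPM in the others, and at 564 CPM in control CT12 female 1, below 1430.5 to 1526 CPM. Fasted CT40 female 2, the library farthest from its group over all genes, was low in Alad (22.9 CPM against 80.4 to 88.5) and in Cpox (147 CPM against 268 to 287) and high in Por (2689 CPM against 1420.0 to 1536). Uros was low in fasted CT44 female 1 (11.2 CPM against 19.997 to 20.7), and Urod high in fasted CT16 male 2 (64.4 CPM against 51.2 to 53.0). Cpox was low in fasted CT36 female 2 (188 CPM against 253 to 262) and Ppox in fasted CT32 female 2 (17.3 CPM against 19.1 to 19.4).

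The fasting effect on Ppox differed between the sexes by a test of the difference itself, -0.27 on the log2 scale, female minus male, with the values given above.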

How the results depend on the processing

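Of 2520 values of the 9 genes under alternatives, 2318 kept their side of the threshold (85 of them, not called, changed sign), 134 lost a call, 67 gained one and 1 called value reversed: Urod at CT40 in males alone (0.0020, log2). Of the list genes, Blvrb reversed in females alone (-0.016). The fits without fasted CT40 female 2 or fasted CT44 female 1 were added after seeing the data. The median of all genes lay between -0.029 and -0.0072 over all alternatives. The cause of each change below was not tested, beyond fewer libraries where some were left out.

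Late minus early, Fech was called with RLE (0.15), upper quartile (0.16), the strict filter of CPM 1 in 20 libraries (0.14), voom (0.14), DESeq2 (0.15), without control CT8 female 2 (0.15) and without fasted CT40 female 2 (0.16), Por with no filter (0.37) and DESeq2 (0.41), and Cpox in males alone (0.44). The sex difference of Alad was called with no filter (-0.36), the strict filter (-0.34), voom (-0.38), DESeq2 (-0.34), without control CT8 female 2 (-0.35) and without fasted CT40 female 2 (-0.28). Hmox1 was called between the sexes in controls with upper quartile (0.33), no filter (0.30), the strict filter (0.31) and DESeq2 (0.30). In males alone the mean effects of Uros (-0.10) and Hmox1 (0.21) were lost.

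Among rhythms (peak-to-trough, log2; for differences, the size of the difference), males alone lost Urod (0.093), Cpox (0.34) and Hmox1 (0.55) in controls, Uros (0.34) in fasted livers and the Ppox difference (0.38), and gained fasted Cpox (0.52). Females alone lost control Uros (0.40), Cpox (0.40) and Hmox1 (0.55), fasted Alas1 (0.98), Uros (0.44) and Urod (0.37), and the differences of Alad (0.82), Ppox (0.33) and Fech (0.18), and gained that of Alas1 (2.27). Fasted Uros was lost with a 12 h harmonic (0.39) and without the linear change (0.37), and control Cpox over CT12 to CT44 with a linear change (0.20) and without control CT8 female 2 (0.28). The Por exon call was lost at 10 counts per bin (adjusted p 0.189).

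Leaving out each replicate number of 1 sex in turn, with the lone mouse of a cell taken to vary like the others, gave these ranges where a call changed. Mean effects ran from -0.19 to -0.14 for Uros and 0.22 to 0.38 for Hmox1; sex differences of the effect from -0.30 to -0.23 for Ppox and -0.45 to -0.33 for Alad. Control sex differences ran from -0.12 to 0.64 for Alas1, -0.20 to -0.145 for Urod, 0.23 to 0.40 for Hmox1 and 0.17 to 0.38 for Por. Fech late minus early ran from 0.10 to 0.18. Control rhythms ran from 0.30 to 0.37 for Cpox, 0.39 to 0.69 for Hmox1 and 0.14 to 0.20 for Urod, and fasted ones from 0.34 to 0.47 for Uros, 0.21 to 0.39 for Urod and 0.26 to 0.53 for Cpox. Rhythm differences ran from 0.17 to 0.30 for Fech, 0.59 to 0.89 for Alad and 0.32 to 0.42 for Ppox.

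The main model treats mice as unpaired. Deviations of same-numbered mice had a median r of 0.003 in males (-0.471 to 0.552) and -0.002 in females (-0.605 to 0.557). In each sex 43 of 190 pairs had an r over 0.1. With a replicate block the sex difference of Alad passed the threshold (-0.35), and no other call of the 9 genes changed.

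Counts of genes called moved by over 1.5 times under some alternatives, for which the lowest and highest such counts are given. The fasting effect called 25 higher and 257 lower genes at CT8, and 0 to 844 and 0 to 1279 under these alternatives, 2 and 9 of them without control CT8 female 2; at CT12 it called 195 and 145, and 0 to 742 and 0 to 416. At later times all of these counts were smaller than the main one and came from fits without a replicate number, of 1 sex or with no sex in the model. The genes called higher and lower went at CT16 from 2429 to between 1039 and 1291 and from 2526 to between 876 and 1673, at CT20 from 3711 to between 2072 and 2299 and from 4046 to between 2329 and 2535, at CT24 from 2583 to between 1012 and 1533 and from 2516 to between 989 and 1669, at CT28 from 2094 to between 801 and 1010 and from 2354 to between 1006 and 1548, at CT32 from 1780 to between 537 and 1061 and from 1971 to between 661 and 1151, at CT36 from 2709 to between 1136 and 1752 and from 2963 to between 1254 and 1806, at CT40 from 3971 to between 2432 and 2445 and from 4488 to between 2640 and 2665 and at CT44 from 3968 to between 2158 and 2644 and from 4387 to between 2387 and 2747. Late minus early they went from 2099 to between 586 and 857 and from 2384 to between 863 and 1364. Without male replicate 1 or 2, the sex difference of the effect fell from 1133 higher and 1488 lower genes to 74 or 155 and 164 or 205, and lower in control females fell from 3948 to 2356 without male replicate 1. Different rhythms fell from 4858 to 2635 genes without male replicate 2, 2354 in males and 1560 in females, control rhythms from 8417 to 5104 and 4692 in males and females, fasted ones from 9395 to 5893 and 4082, and exon calls from 1975 to 971 at 10 counts per bin. Of the lists, the regulators that fell went from 2 to 0 or 1 in 3 fits, and those of heme synthesis and breakdown from 2 to 1 with no sex in the model.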

Other observations

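Alas2, the form of the first enzyme that red cell precursors use, differed between the sexes in liver far more than any of the 9 genes. Control males had 147 ± 13.1 CPM and control females 13.3 ± 3.68 CPM (mean ± SD, n = 20 each, CT8 to CT44), and the libraries of the sexes did not overlap, the lowest male being at 122 CPM and the highest female at 24.4 CPM. The difference was -3.47 (log2, female minus male, adjusted p = 5.12e-29 by edgeR). The globins of red cells differed much less, with 54.1 ± 12.3 CPM of Hbb-bs in control males and 39.8 ± 10.4 CPM in control females. The red cell membrane gene Slc4a1 was near 0, with at most 0.328 CPM in any control library. Of 8 red cell and erythroid markers 6 were tested, of which 2, Alas2 among them, fell with fasting and none rose, where 32.9% of all genes fell and 29.5% rose.

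The fasting effect on Alas2 grew over the fast, late minus early, by -1.35 (log2, adjusted p = 1.14e-06), and its mean fall was not called when sex was left out of the model (-0.84, adjusted p = 0.077). In fasted males Alas2 ran from 30.1 to 163 CPM.

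Of the other markers, over CT12 to CT44, 4 of 6 hepatocyte markers rose and 2 fell, 3 of 6 of sinusoidal endothelium rose and 2 fell, 1 of 5 of stellate cells rose and 3 fell, and 3 of 4 of cholangiocytes fell, beside 29.5% of all genes that rose and 32.9% that fell. Their part in the results above was not tested.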
